A study of Homo sapiens with 8 samples.

Results

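The transporters that carry amino acids and short peptides across cell membranes were followed in 2D human intestinal epithelial cells (hIECs) differentiated from the H9 human embryonic stem cell line. Members were chosen by gene symbol, as the protein-coding genes of the SLC1, SLC3, SLC6, SLC7, SLC15, SLC36, SLC38 and SLC43 families, which gave 64 of the 60558 genes in the files and of their 19957 protein-coding genes. RNA-seq was available for 8 libraries in 4 groups of 2. They were normal hIECs (NT), normal hIECs exposed to particulate matter 10 (PM10), hIECs inflamed by cytokine treatment (IT), and inflamed hIECs exposed to PM10 (IT-PM10). By the study's methods, the cytokines were IFNγ and TNFα, each at 50 ng/ml for 10 days, and PM10, a certified reference dust, was added at 100 μg/ml over the final 7 days of that period. The treatment field of the labels reads 10 days in every group. All groups came from 1 cell line, and the labels do not say whether the 2 libraries of a group came from separate cultures, so the p-values below measure only the spread between these libraries.

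Amino acids and peptides released by digestion enter the enterocyte through transporters of the brush border and leave through others on the basolateral side. SLC15A1 (PepT1) takes up di- and tripeptides with protons, SLC6A19 takes up neutral amino acids with sodium, and the heavy chain SLC3A1 pairs with SLC7A9 to take up cystine and cationic amino acids. On the basolateral side the heavy chain SLC3A2 (4F2hc, CD98) brings several SLC7 light chains to the membrane, and these exchange one amino acid for another. Members of SLC1 and SLC38 carry glutamate, glutamine and small neutral amino acids in most cell types, and SLC15A3, SLC15A4, SLC38A7 and SLC38A9 sit on lysosomes.

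The labelled cell type was checked against marker genes. CDX2, VIL1 and KRT20 of the intestinal epithelium were listed at 0 in all 8 libraries, EPCAM was between 0 and 0.622 FPKM (fragments counted per unit of transcript length and of library size), and CDH1 was listed at 0 in 7 of 8 libraries. All 9 markers of mature enterocytes, FABP1, FABP2, APOA1, APOA4, SI, LCT, ALPI, SLC5A1 and RBP2, were listed at 0 throughout. The keratins KRT8 (185 to 383 FPKM) and KRT18 (100.1 to 266 FPKM) were high, and so were all 11 mesenchymal markers, whose summed level was 4424 to 5864 FPKM. The cells are called hIECs here as the labels do, although these libraries lack the defining markers of intestinal epithelium. In bulk RNA, fewer cells of a type and less RNA per cell cannot be told apart.

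Of the 64 members, 34 reached 1 FPKM in at least 2 libraries and were tested, 26 were listed at 0 in all 8 libraries, and 4 lay in between. The lowest value above 0 in each library was 0.164 to 0.228 FPKM, so a listing at 0 means a level under about this value. Several members that absorb amino acids and peptides at the brush border were among those at 0, while SLC1A1 and SLC36A1, also known from that membrane, were tested in these libraries. SLC15A1 (chr13:98683801-98752672, GRCh38), SLC6A19, SLC6A20, and both SLC3A1 (chr2:44275458-44321494) and its partner SLC7A9 were listed at 0 in every library of every group, so no comparison of them was possible. So were SLC15A5, SLC1A2, SLC1A7, SLC36A2, SLC36A3, SLC38A8, SLC38A11, SLC6A5, SLC6A7, SLC6A14, SLC6A18, SLC7A4, SLC7A13 and SLC7A14. The carriers of neurotransmitters and related compounds in the SLC6 family that were listed at 0 throughout included SLC6A2, SLC6A3, SLC6A4, SLC6A11, SLC6A12 and SLC6A13.

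The 4 members in between were too low to test. SLC15A2 (PepT2), the other plasma membrane peptide transporter, was at 0.523 and 0.560 FPKM in NT, 0.407 and 0.422 FPKM in PM10, 0 and 0 FPKM in IT and 0 and 0 FPKM in IT-PM10. All 4 libraries without cytokines were above 0 and all 4 with cytokines were listed at 0. SLC38A4 was at 0.235 to 0.442 FPKM in 6 libraries and listed at 0 in both IT-PM10 libraries. SLC7A2 (0.356 to 0.658 FPKM) and SLC43A2 (0.214 to 0.476 FPKM) were above 0 in all 8 libraries.

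FPKM divides by transcript length, so levels could be compared between members. SLC3A2 (chr11:62856004-62888880) was the most abundant member in 8 of 8 libraries, at 46.2 and 57.4 FPKM in NT, 51.9 and 49.3 FPKM in PM10, 47.0 and 50.4 FPKM in IT and 39.8 and 40.2 FPKM in IT-PM10. SLC1A5 (ASCT2, which brings in glutamine by exchange), SLC38A2 (SNAT2, sodium-coupled uptake of small neutral amino acids) and SLC38A10 followed, each between 23.6 and 44 FPKM, and their ranges over the libraries overlapped. These 4 genes held 53.4% to 57.6% of the summed FPKM of all members without cytokines and 45.7% to 51.3% with cytokines. The summed level of all members was 251 to 265 FPKM in the 4 libraries without cytokines and 283 to 303 FPKM in the 4 with cytokines.

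**Figure D1:**
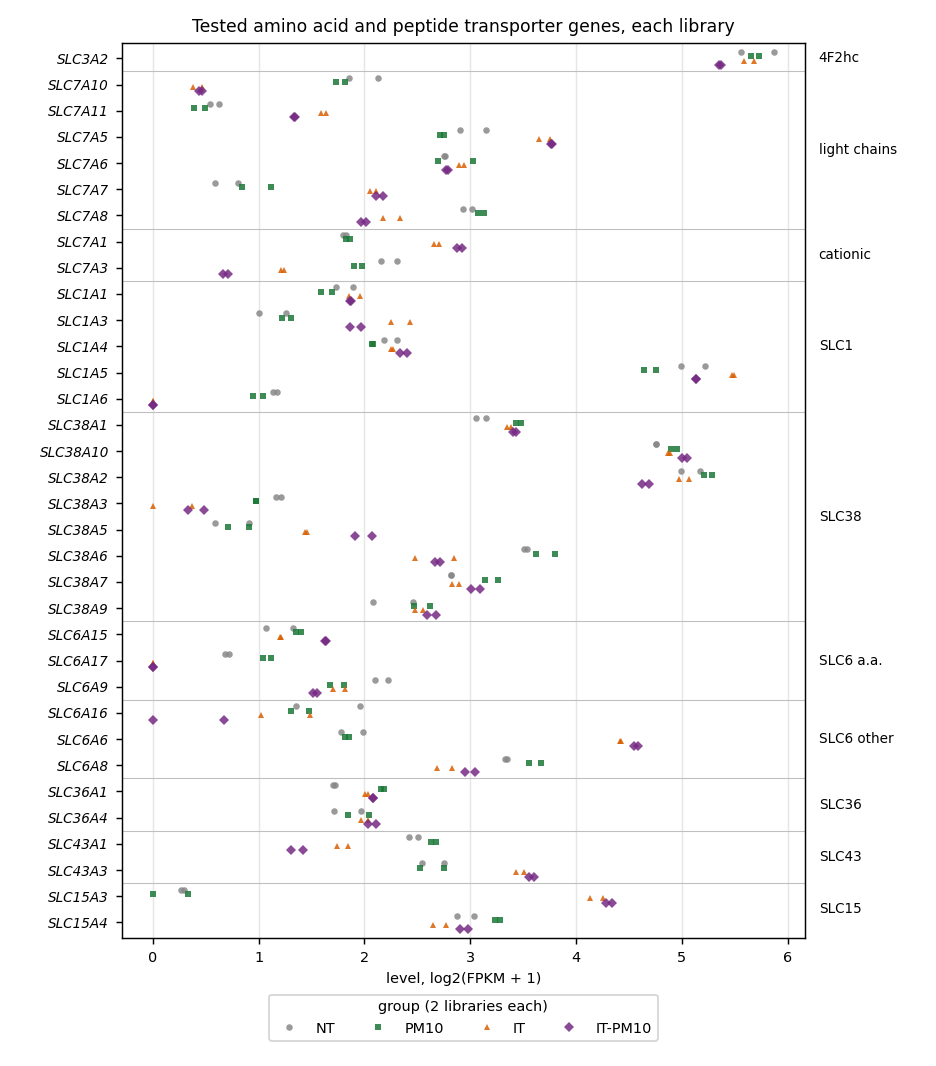
Level of the 34 tested members in each of the 8 libraries, as log2(FPKM + 1) on the horizontal axis, with 1 marker per library, colours and shapes for the 4 groups, and genes grouped by role. SLC3A2 lies farthest right, and SLC15A3 and SLC6A6 show the widest gaps between libraries with and without cytokines.

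Differences between groups were taken on the log2(FPKM + 1) scale, which understates the change of low genes, and a member was counted as higher or lower when its Benjamini-Hochberg adjusted p from limma was under 0.05. With cytokines and without PM10 (IT against NT), 23 of the 34 tested members differed, 12 higher and 11 lower, where 56.2% of all 14206 genes tested differed. With PM10 present in both groups (IT-PM10 against PM10), 25 members differed, 12 higher and 13 lower, where 65.4% of all genes differed. The shares of members were 67.6% and 73.5%, near these backgrounds. These comparisons share no library, and 20 members were called in both, which is 20 of 23 and 20 of 25, all 20 in the same direction. The number of all genes called in both was not counted, so no background stands beside these. Both comparisons also use the same estimate of spread per gene, taken from all 8 libraries. The median absolute log2 difference of the members was 0.63 in both comparisons, against 0.30 and 0.38 over all genes. Of the 34 tested members, 9 and 13 were called with a log2 difference of at least 1 in size. Over all 14206 genes, 1304 and 1835 passed both limits, or 9.18% and 12.9%, which are smaller shares than those of the members. The signed medians of the members were 0.07 and -0.06, against -0.03 and -0.11 over all genes. SLC15A3, SLC38A5, SLC7A7 and SLC7A11 reached 1 FPKM in at least 2 libraries only through libraries with cytokines. SLC1A6, SLC38A3, SLC6A17 and SLC7A10 did so only through libraries without them. The filter thus favoured a difference in these members, and in such genes among all 14206. The sizes above, and the p-values and lack of overlap of these members below, are therefore descriptions.

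**Figure D2:**
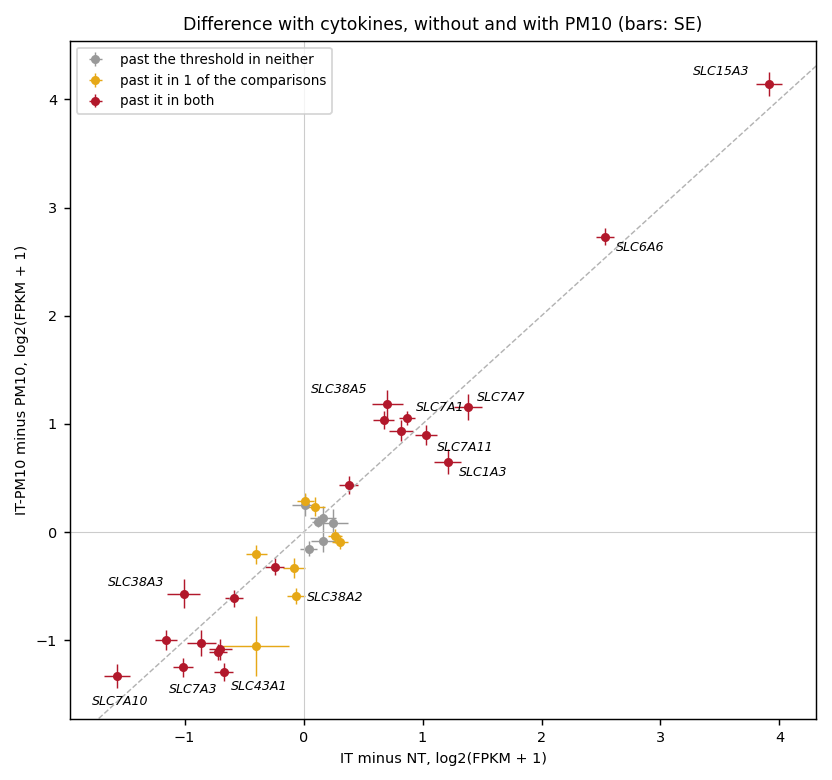
Difference with cytokines for the 34 tested members, without PM10 (horizontal, IT minus NT) and with PM10 (vertical, IT-PM10 minus PM10), in log2(FPKM + 1), with bars for the standard error and a dashed line of equal differences. SLC15A3 and SLC6A6 lie at the upper right, and SLC7A10, SLC7A3 and SLC43A1 at the lower left.

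SLC15A3 (PHT2, ENSG00000110446, chr11:60937060-60952653), a lysosomal transporter of histidine and peptides, had the largest difference of all members. It was at 0.205 and 0.223 FPKM in NT, 0 and 0.258 FPKM in PM10, 16.6 and 18.1 FPKM in IT and 19.2 and 18.5 FPKM in IT-PM10. The 4 libraries without cytokines were near the lowest level above 0 in these files or listed at 0, and all 4 with cytokines were at 16.6 FPKM or more, so that no fold change is given. The log2 difference was 3.91 (SE 0.11, adjusted p = 2.49e-07) without PM10 and 4.14 (SE 0.11, adjusted p = 1.43e-07) with PM10. SLC15A3 entered the test only through its libraries with cytokines, so these p-values are not independent of the filter. The related lysosomal transporter SLC15A4 (PHT1) went the other way, at 7.22 and 6.32 FPKM in NT, 8.72 and 8.41 FPKM in PM10, 5.28 and 5.84 FPKM in IT and 6.46 and 6.89 FPKM in IT-PM10. It was called lower in both comparisons, with log2 differences of -0.24 and -0.32, but the groups with and without cytokines overlapped, and the call without PM10 was made in 11 of 20 alternative analyses.

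SLC6A6 (TauT, ENSG00000131389, chr3:14402576-14489349), which takes up taurine with sodium and chloride, was at 2.97 and 2.44 FPKM in NT, 2.60 and 2.52 FPKM in PM10, 20.3 and 20.4 FPKM in IT and 23.0 and 22.3 FPKM in IT-PM10. Every library with cytokines lay above every library without. Group means differed 7.53-fold without PM10 and 8.84-fold with PM10, which on the log2 scale was 2.53 (SE 0.08, adjusted p = 3.65e-07) and 2.73 (SE 0.08, adjusted p = 1.78e-07). The creatine transporter SLC6A8 fell instead, at 9.19 and 9.04 FPKM in NT, 10.7 and 11.7 FPKM in PM10, 5.43 and 6.11 FPKM in IT and 7.23 and 6.75 FPKM in IT-PM10, with no overlap between libraries with and without cytokines and log2 differences of -0.58 and -0.61. The glycine transporter SLC6A9 was at 3.66 and 3.28 FPKM in NT, 2.18 and 2.50 FPKM in PM10, 2.25 and 2.52 FPKM in IT and 1.94 and 1.86 FPKM in IT-PM10, and its call as lower was made without PM10 only, a difference between the comparisons that the interaction test did not call (adjusted p = 0.394). SLC6A17, a vesicular carrier of neutral amino acids known from neurons, was at 0.601 to 1.17 FPKM in the 4 libraries without cytokines and listed at 0 in the 4 with them.

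**Figure D3:**
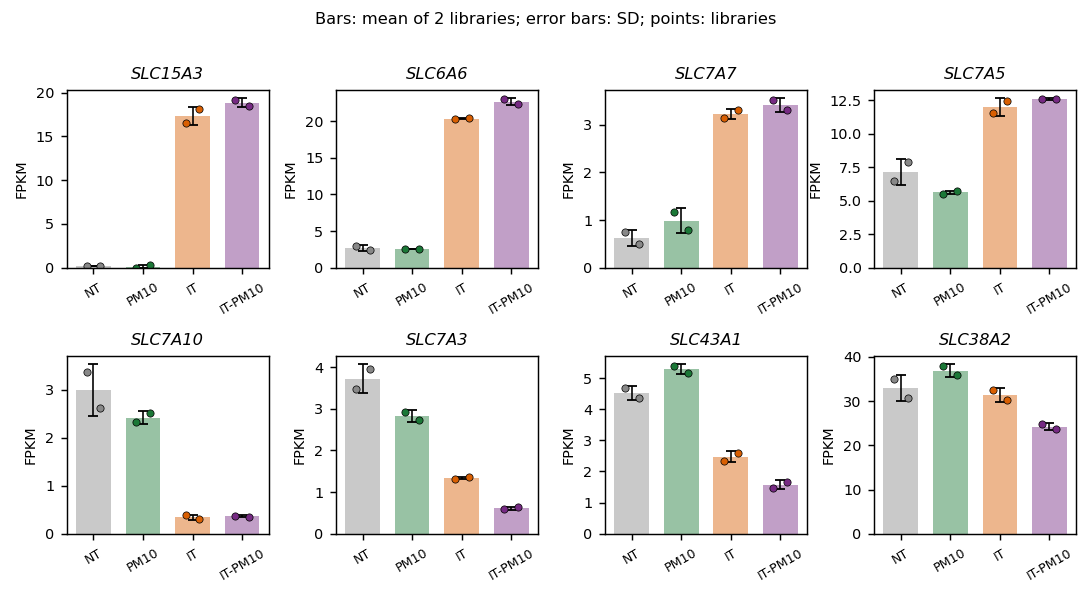
FPKM of 8 members in the 4 groups on linear axes that start at 0, with bars for the mean of 2 libraries, error bars for the standard deviation and points for the libraries. SLC15A3, SLC6A6, SLC7A7 and SLC7A5 are higher in both groups with cytokines, SLC7A10, SLC7A3 and SLC43A1 are lower, and SLC38A2 is lowest in IT-PM10.

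The heavy chain SLC3A2 was called in 1 of the cytokine comparisons, and 5 of its 6 light chains were called in both. SLC3A2 differed by -0.08 on the log2 scale without PM10 (SE 0.10, adjusted p = 0.503) and by -0.33 with PM10 (SE 0.10, adjusted p = 0.0173), and the latter call was lost under median centring and when PM10 replicate 1 or either IT-PM10 library was left out (adjusted p 0.00146 to 0.0861 over the alternatives). Of the light chains, 3 rose and 2 fell with cytokines in both comparisons, where 56.2% and 65.4% of all genes differed. SLC7A6 (y+LAT2) did not pass the test in either, at 5.47 to 7.12 FPKM over the 8 libraries.

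SLC7A5 (LAT1, chr16:87830023-87869507), the exchanger of large neutral amino acids such as leucine, was the most abundant light chain in the 4 libraries with cytokines. It was at 6.5 and 7.87 FPKM in NT, 5.55 and 5.73 FPKM in PM10, 11.6 and 12.5 FPKM in IT and 12.6 and 12.6 FPKM in IT-PM10, with all libraries with cytokines above all without. Means differed 1.67-fold without PM10 and 2.24-fold with PM10. SLC7A7 (y+LAT1, ENSG00000155465, chr14:22773222-22829820), which exports cationic amino acids at the basolateral side, was at 0.748 and 0.502 FPKM in NT, 1.17 and 0.799 FPKM in PM10, 3.15 and 3.31 FPKM in IT and 3.51 and 3.30 FPKM in IT-PM10. It did not overlap between libraries with and without cytokines either, with log2 differences of 1.38 (SE 0.12, adjusted p = 5.76e-05) and 1.16 (SE 0.12, adjusted p = 0.000105). SLC7A11 (xCT, ENSG00000151012, chr4:138164097-138242349), which takes up cystine for glutathione synthesis in exchange for glutamate, was at 0.456 and 0.544 FPKM in NT, 0.407 and 0.309 FPKM in PM10, 2.10 and 2.02 FPKM in IT and 1.55 and 1.52 FPKM in IT-PM10. Its means differed 4.12-fold and 4.28-fold, and the log2 difference without PM10 was 1.03 (SE 0.09, adjusted p = 6.37e-05). The libraries without cytokines, at 0.309 to 0.544 FPKM, were not far above the lowest level of the files, so these fold changes are uncertain. SLC7A7 and SLC7A11 passed the filter only through libraries with cytokines, so their p-values are not independent of it.

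SLC7A8 (LAT2, chr14:23125295-23183674), the second exchanger of neutral amino acids, was at 6.65 and 7.09 FPKM in NT, 7.39 and 7.72 FPKM in PM10, 3.51 and 4.04 FPKM in IT and 2.92 and 3.03 FPKM in IT-PM10, and fell 1.82-fold without PM10 and 2.54-fold with PM10, the latter -1.11 (SE 0.08, adjusted p = 1.41e-05) on the log2 scale. SLC7A10 (Asc-1, ENSG00000130876, chr19:33208664-33225850), an exchanger of small neutral amino acids known from brain and fat, was at 3.38 and 2.62 FPKM in NT, 2.33 and 2.52 FPKM in PM10, 0.383 and 0.301 FPKM in IT and 0.379 and 0.351 FPKM in IT-PM10. The 4 libraries with cytokines stood just above the lowest level of the files, and the log2 differences were -1.57 (SE 0.11, adjusted p = 2.31e-05) and -1.33 (SE 0.11, adjusted p = 3.81e-05). In both genes no library with cytokines reached the level of any library without. SLC7A10 passed the filter only through libraries without cytokines, so its p-values are not independent of it.

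The sum of the 6 light chains was 22.5 to 24.3 FPKM without cytokines and 26.7 to 28.6 FPKM with cytokines, so their shares moved more than their sum. SLC7A5 made up 23.1% to 32.4% of that sum in the libraries without cytokines and 42.2% to 47.4% in those with cytokines. SLC7A8 made up 28.3% to 34.3% without and 10.9% to 14.2% with cytokines, and SLC7A10 went from 9.71% to 14.4% down to 1.05% to 1.41%. SLC7A7 went from 2.06% to 4.87% up to 11.5% to 13.1%. The ratio of SLC3A2 to the summed light chains was 1.97 to 2.36 without cytokines, 1.72 and 1.77 in IT, and 1.48 and 1.51 in IT-PM10. These shares and ratios are descriptions of the libraries and were not tested.

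**Figure D4:**
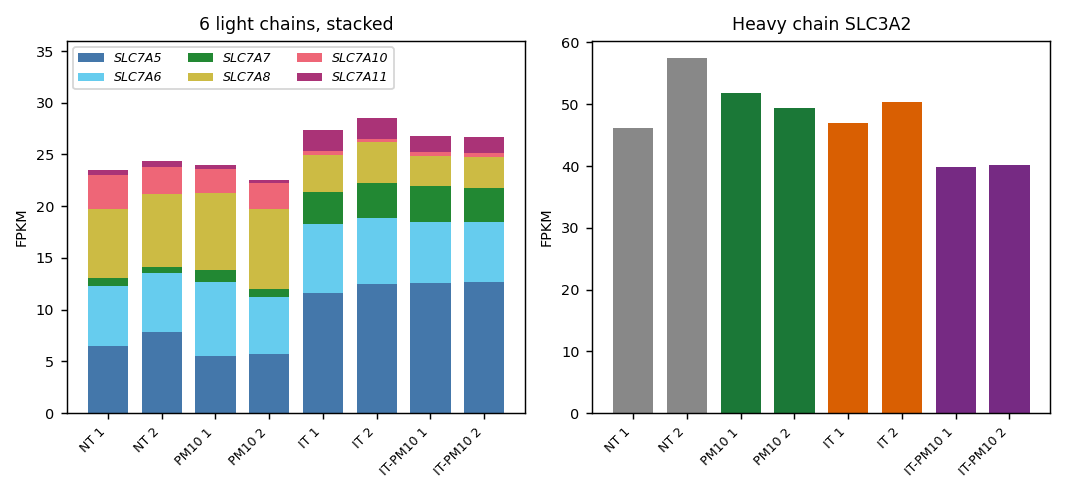
FPKM of the 6 light chains that pair with SLC3A2, stacked for each library (left), and of SLC3A2 itself (right), with axes that start at 0. The SLC7A5 segment is the largest in the 4 libraries with cytokines, while SLC3A2 is lowest in the 2 IT-PM10 libraries.

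The transporters of arginine and lysine of the SLC7 family exchanged rank. SLC7A1 (CAT1, ENSG00000139514, chr13:29509414-29595688), the widely expressed form, was at 2.48 and 2.55 FPKM in NT, 2.64 and 2.54 FPKM in PM10, 5.53 and 5.31 FPKM in IT and 6.33 and 6.58 FPKM in IT-PM10. SLC7A3 (CAT3, ENSG00000165349, chrX:70925579-70931125), known from brain and early embryonic tissue, was at 3.47 and 3.97 FPKM in NT, 2.93 and 2.72 FPKM in PM10, 1.32 and 1.36 FPKM in IT and 0.588 and 0.632 FPKM in IT-PM10. In each of the 4 libraries without cytokines SLC7A3 lay above SLC7A1, and in the 4 libraries with cytokines SLC7A1 lay above SLC7A3. Without PM10 the log2 difference was 0.87 (SE 0.06, adjusted p = 2.93e-05) for SLC7A1 and -1.01 (SE 0.09, adjusted p = 5.45e-05) for SLC7A3. With PM10 SLC7A1 rose 2.50-fold, and SLC7A3 fell by 1.25 (SE 0.09, adjusted p = 1.32e-05) on the log2 scale.

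Of the 5 SLC1 members tested, 2 rose and 1 fell without PM10, and 4 rose and 1 fell with PM10, where 56.2% and 65.4% of all genes differed. SLC1A3 (EAAT1, ENSG00000079215, chr5:36596588-36688334), a sodium-coupled transporter of glutamate and aspartate, was at 1.39 and 1.00 FPKM in NT, 1.33 and 1.47 FPKM in PM10, 3.75 and 4.40 FPKM in IT and 2.92 and 2.63 FPKM in IT-PM10. The 4 libraries with cytokines were all above the 4 without, and the difference without PM10 was 1.21 (SE 0.11, adjusted p = 9.35e-05), or 3.41-fold between means. SLC1A5 (ASCT2) was at 30.7 and 36.3 FPKM in NT, 25.9 and 23.9 FPKM in PM10, 43.4 and 44 FPKM in IT and 34.0 and 34.1 FPKM in IT-PM10. It rose in both comparisons, 1.30-fold and 1.36-fold, although the IT-PM10 libraries lay within the range of NT. SLC1A6 (EAAT4), a glutamate transporter known from cerebellar neurons, was at 1.20 and 1.26 FPKM in NT, 0.934 and 1.06 FPKM in PM10, 0 and 0 FPKM in IT and 0 and 0 FPKM in IT-PM10, so that it too was listed at 0 wherever cytokines were given. SLC1A1 and SLC1A4 were also called higher with PM10, with log2 differences of 0.23 and 0.29, and were not called without it, a difference between the comparisons that limma's interaction test did not call (adjusted p = 0.551 and 0.160). The call of SLC1A1 was made in 12 of 20 alternative analyses.

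The SLC38 family held 8 tested members. Of these, 2 rose and 2 fell without PM10, and 1 rose and 3 fell with PM10, where 56.2% and 65.4% of all genes differed. SLC38A5 (SNAT5, chrX:48458537-48470260), a sodium-coupled carrier of glutamine and histidine, was at 0.875 and 0.50 FPKM in NT, 0.641 and 0.876 FPKM in PM10, 1.72 and 1.74 FPKM in IT and 2.77 and 3.20 FPKM in IT-PM10. It did not overlap between libraries with and without cytokines. It rose by 0.70 on the log2 scale without PM10 and by 1.18 (SE 0.13, adjusted p = 0.000162) with PM10. SLC38A5 passed the filter only through libraries with cytokines, so this p-value is not independent of it. SLC38A6, an orphan member, was at 10.6 and 10.4 FPKM in NT, 11.3 and 12.9 FPKM in PM10, 4.57 and 6.18 FPKM in IT and 5.56 and 5.34 FPKM in IT-PM10, and fell 1.95-fold and 2.23-fold. SLC38A3 (SNAT3) was at 0.962 to 1.32 FPKM without cytokines and at 0 to 0.395 FPKM with them, with no overlap. SLC38A1 (SNAT1) was called higher without PM10, and its values stand with those of PM10. SLC38A2 (SNAT2) was called lower with PM10 only, with a log2 difference of -0.59, and its values stand with the interaction. The lysosomal members SLC38A7, which exports glutamine, and SLC38A9, the arginine sensor of mTORC1, did not pass the test in either cytokine comparison.

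In the SLC43 family, SLC43A1 (LAT3, ENSG00000149150, chr11:57484534-57515780), which moves leucine and other large neutral amino acids down their gradient, was at 4.69 and 4.35 FPKM in NT, 5.40 and 5.18 FPKM in PM10, 2.34 and 2.60 FPKM in IT and 1.47 and 1.67 FPKM in IT-PM10. It fell 1.83-fold without PM10 and 3.36-fold with PM10, the latter -1.29 (SE 0.08, adjusted p = 8.28e-06) on the log2 scale, with no overlap between libraries with and without cytokines. SLC43A3, which carries purine nucleobases rather than amino acids, was at 4.84 and 5.76 FPKM in NT, 5.75 and 4.76 FPKM in PM10, 9.76 and 10.4 FPKM in IT and 10.7 and 11.2 FPKM in IT-PM10 and rose 1.90-fold and 2.08-fold. The exons of SLC43A3 share 29.9% of their bases with another annotated gene on the same strand. Those of SLC7A6 share 55.6% and those of SLC1A5 share 23.8% with genes on the opposite strand, and these libraries carry no strand information. Part of the FPKM of these members may therefore belong to the neighbours. Of the 34 tested members, 9 had all 4 libraries with cytokines above all 4 without, where 24.4% of all genes tested did, and 9 had all 4 below, where 33.1% did. The other 16 overlapped.

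Short stretches before the start sites are shown for members called higher, called lower or not called, because IFNγ and TNFα act through transcription factors with known DNA elements. RefSeq promoter windows (GRCh38.p14, from 250 bases before to 50 after each start) matched 48 of the 64 members and 27 of the 34 tested. SLC15A3, SLC38A3, SLC43A3, SLC6A15, SLC6A6, SLC7A11 and SLC7A3 were not matched. The element TTCNNNGAA (GAS, bound by STAT factors, and its own reverse complement) was in 4 of 70 windows of members, or 5.71%, where 7.66% of all 35116 windows held it. GAAANNGAA (ISRE core, both strands) was in 3 windows, 4.29% against 8.11% of all. TGACNNNGC (antioxidant response element core, both strands) was in 8, 11.4% against 13.3%. GGGANTTTC (NF-kB) and TGATGNAAT (amino acid response element) were in none of the 70 windows, against 1.28% and 0.991% of all. Not every match is shown. Stretches that overlap an exon of the same gene are left out, among them an ISRE match in SLC7A7, and so is a further GAS match in SLC3A2. The stretches shown for SLC38A1, SLC3A2 and SLC7A7 lie inside the annotated bounds of the gene, before another of its starts. The stretches run 5′ to 3′ on the strand of the gene, with the matched letters in capitals.
SLC1A3, GAS, chr5:36596523-36596571, plus strand: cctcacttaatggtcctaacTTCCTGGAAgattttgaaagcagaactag
SLC38A1, GAS, chr12:46266673-46266721, minus strand: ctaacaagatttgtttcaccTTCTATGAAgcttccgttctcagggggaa
SLC36A1, ISRE, chr5:151436824-151436872, plus strand: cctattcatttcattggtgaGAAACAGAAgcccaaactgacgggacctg
SLC7A1, antioxidant response element, chr13:29595745-29595793, minus strand: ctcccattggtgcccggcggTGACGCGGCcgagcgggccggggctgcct
SLC7A7, antioxidant response element, chr14:22819851-22819899, minus strand: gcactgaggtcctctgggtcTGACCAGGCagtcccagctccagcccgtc
SLC3A2, antioxidant response element, chr11:62881642-62881690, plus strand: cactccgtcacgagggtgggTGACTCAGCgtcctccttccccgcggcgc
SLC3A2, GAS, chr11:62881595-62881643, plus strand: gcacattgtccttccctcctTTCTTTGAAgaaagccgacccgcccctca
SLC15A4, antioxidant response element, chr12:128823959-128824000, minus strand: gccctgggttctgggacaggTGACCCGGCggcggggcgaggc
SLC7A6, antioxidant response element, chr16:68264309-68264357, plus strand: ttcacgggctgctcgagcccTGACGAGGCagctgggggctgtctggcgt
The matches were no more frequent among members than among all windows, and a match describes letters in the sequence, not a bound site. SLC1A3, SLC38A1, SLC36A1, SLC7A1 and SLC7A7 were called higher in IT against NT, SLC15A4 was called lower, and SLC3A2 and SLC7A6 were not called there.

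Fewer members were called with PM10, and with smaller differences. In normal hIECs (PM10 against NT), 5 of the 34 tested members differed, 3 higher and 2 lower, where 9.23% of all genes differed. In inflamed hIECs (IT-PM10 against IT), 7 differed, 2 higher and 5 lower, where 15.2% of all genes differed. The median absolute log2 difference of the members was 0.18 and 0.17, against 0.14 in both comparisons over all genes, and no called member differed by 1 or more. Only SLC1A5 was called in both comparisons, which share no library but use the same estimate of spread. The number of all genes called in both was not counted. With 2 libraries against 2, an exact permutation test of 1 gene cannot give a two-sided p below 0.333, so these calls rest on the spread that limma estimates over all groups and genes.

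**Figure D5:**
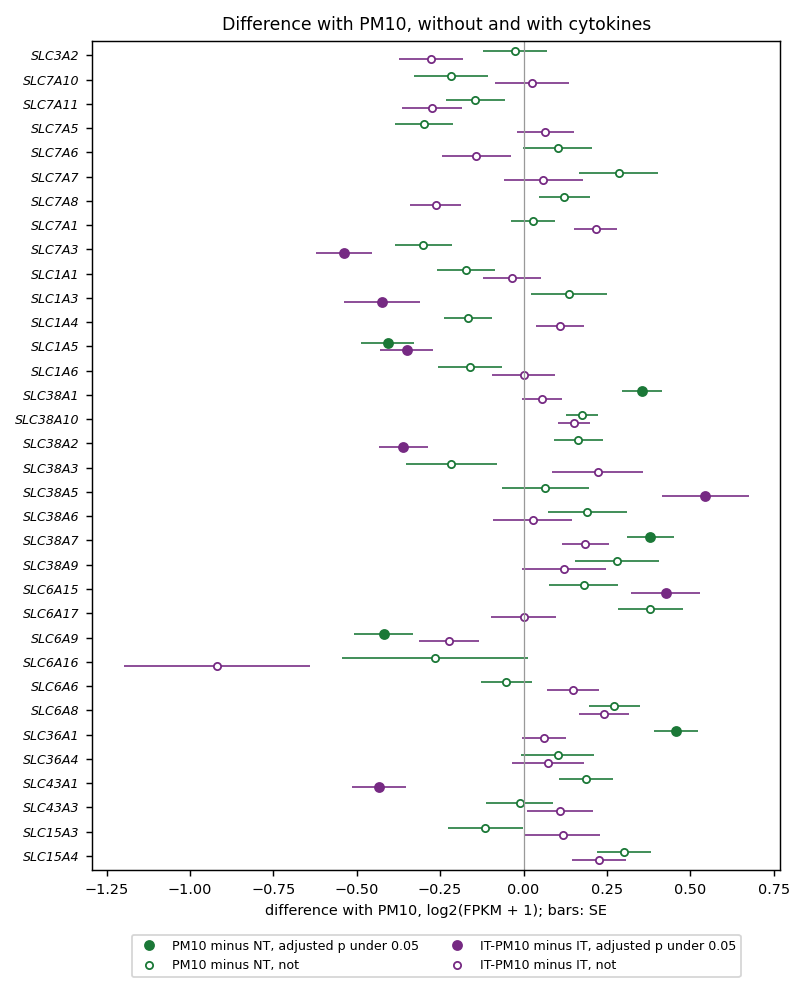
Difference with PM10 for the 34 tested members in normal hIECs (green, PM10 minus NT) and inflamed hIECs (purple, IT-PM10 minus IT), in log2(FPKM + 1), with bars for the standard error and filled points for an adjusted p under 0.05. SLC1A5 is filled to the left in both, and SLC43A1 and SLC38A2 lie on opposite sides of 0.

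In normal hIECs, SLC36A1 (PAT1, chr5:151437046-151492379), which moves small amino acids such as glycine and proline with protons at lysosomes and at the cell surface, rose from 2.25 and 2.31 FPKM in NT to 3.55 and 3.46 FPKM in PM10, a log2 difference of 0.46 (SE 0.07, adjusted p = 0.00996). The lysosomal glutamine exporter SLC38A7 rose from 6.05 and 6.07 to 7.78 and 8.62 FPKM, a log2 difference of 0.38 (SE 0.07, adjusted p = 0.0217). SLC38A1 (SNAT1), which takes up glutamine with sodium, rose from 7.87 and 7.29 to 10.2 and 9.77 FPKM, a log2 difference of 0.36 (SE 0.06, adjusted p = 0.017). In these 3 genes both PM10 libraries lay above both NT libraries, and such a separation was a condition for giving full statistics. With cytokines present the PM10 difference of SLC36A1 and SLC38A1 was 0.06 in both, and both genes were also called higher in IT against NT, by 0.31 and 0.26, a comparison that shares the NT libraries. The interaction test did not call either, with an adjusted p of 0.0507 and 0.086.

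Among the members lower with PM10, SLC1A5 fell from 30.7 and 36.3 to 25.9 and 23.9 FPKM in normal hIECs, a log2 difference of -0.41 (SE 0.08, adjusted p = 0.0261). In inflamed hIECs it fell from 43.4 and 44 to 34.0 and 34.1 FPKM, a log2 difference of -0.35 (SE 0.08, adjusted p = 0.0289). In both settings the groups did not overlap, again a condition for giving full statistics. The glycine transporter SLC6A9 fell from 3.66 and 3.28 to 2.18 and 2.50 FPKM in normal hIECs, a log2 difference of -0.42 (SE 0.09, adjusted p = 0.0317). None of the 6 light chains of SLC3A2 was called with PM10 by limma, in normal or inflamed hIECs, where 9.23% and 15.2% of all genes were called. In each setting 2 had an unadjusted p under 0.05. The normal calls depended on the libraries: more members were called without NT replicate 1 and fewer without any other library. None of the calls held in all of these fits. The number called over all genes moved the same way each time, so this was not particular to the members. Rescaling without mitochondrial genes, whose share was 17% and 24% in the NT libraries, gave 6 higher and 2 lower. Over all 14169 genes then tested, 1466 were higher and 486 lower.

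In inflamed hIECs, SLC7A3 had the largest fall among the members called, from 1.32 and 1.36 to 0.588 and 0.632 FPKM, a log2 difference of -0.54 (SE 0.09, adjusted p = 0.0079). SLC43A1 fell from 2.34 and 2.60 to 1.47 and 1.67 FPKM, a log2 difference of -0.43 (SE 0.08, adjusted p = 0.014), and SLC1A3 from 3.75 and 4.40 to 2.92 and 2.63 FPKM, a log2 difference of -0.42 (SE 0.11, adjusted p = 0.0468). SLC38A2 (chr12:46358188-46372773) fell from 32.5 and 30.3 to 24.8 and 23.6 FPKM, a log2 difference of -0.36 (SE 0.07, adjusted p = 0.019). SLC38A5 rose from 1.72 and 1.74 to 2.77 and 3.20 FPKM, a log2 difference of 0.54 (SE 0.13, adjusted p = 0.0337), and SLC6A15, which takes up branched-chain amino acids and proline, rose from 1.31 and 1.30 to 2.09 and 2.11 FPKM, a log2 difference of 0.43 (SE 0.10, adjusted p = 0.0338). In none of these 6 genes did the IT and IT-PM10 libraries overlap, which was a condition for giving their full statistics. The orphan member SLC6A16 had a log2 difference of -0.92 (SE 0.28, adjusted p = 0.0671) and was not called, at 1.55 and 2.89 FPKM in NT, 1.47 and 1.78 FPKM in PM10, 1.80 and 1.04 FPKM in IT and 0.595 and 0 FPKM in IT-PM10. Fewer members were called when any 1 library of IT or IT-PM10 was left out, and fewer of all genes were called as well. None of the calls held in all of these fits. On values rescaled to a common sum (TPM) 3 members were called, all lower, where 1250 of all 14206 genes were called. In these libraries 6 of 11 mesenchymal markers were called lower with PM10 and 1 higher, where 15.2% of all genes were called. Their summed level was 5791 to 5864 FPKM in IT and 5116 to 5134 FPKM in IT-PM10. The part of this in the members' values was not tested.

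The interaction of PM10 and cytokines was called for 2 of the 34 members, where 6.60% of all genes were called. SLC43A1 was at 4.69 and 4.35 FPKM in NT, 5.40 and 5.18 FPKM in PM10, 2.34 and 2.60 FPKM in IT and 1.47 and 1.67 FPKM in IT-PM10. Its PM10 difference was 0.19 in normal and -0.43 in inflamed hIECs, and the difference between these was -0.62 (SE 0.11, adjusted p = 0.0253). SLC38A2, the stress-regulated uptake system for small neutral amino acids, was at 35 and 30.8 FPKM in NT, 37.9 and 35.9 FPKM in PM10, 32.5 and 30.3 FPKM in IT and 24.8 and 23.6 FPKM in IT-PM10. Its PM10 difference was 0.16 in normal and -0.36 in inflamed hIECs, and the difference between these was -0.52 (SE 0.10, adjusted p = 0.0306). In both genes the PM10 libraries held the 2 highest values and the IT-PM10 libraries the 2 lowest. Neither call was made on values rescaled to a common sum or without any 1 of the 6 libraries other than NT. Without NT replicate 1 more members were called, and so were more of all genes.

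Genes around these transporters were read from lists written by hand. Of 19 amino acid response genes tested, the targets of ATF4 that cells turn on when amino acids are scarce, 10 rose and 4 fell with cytokines without PM10, and 6 rose and 5 fell with PM10, where 56.2% and 65.4% of all genes differed. ATF3, a transcription factor of this response, rose by 2.68 and 1.98 on the log2 scale, and STC2 by 1.01 and 1.05. PHGDH, which makes serine, fell, with log2 differences of -0.82 and -1.13. With PM10 in inflamed hIECs 9 of the 19 fell and 0 rose, where 15.2% of all genes were called: the log2 differences were -0.83 for TRIB3, -0.64 for DDIT3 and PHGDH and -0.63 for DDIT4. In normal hIECs, where 9.23% of all genes were called, 1 rose and 2 fell with PM10, with log2 differences of 0.60 for ATF3, -0.49 for PSAT1 and -0.33 for PHGDH.

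Of 22 genes through which lysosomes report amino acids to mTORC1, 3 rose and 8 fell with cytokines without PM10, and 2 rose and 14 fell with PM10, against 56.2% and 65.4% of all genes called. CASTOR1, a cytosolic arginine sensor, had log2 differences of -0.88 and -0.62, the Rag GTPase RRAGB of -0.62 and -0.68, and the transcription factor TFEB of -0.46 and -0.76, while its relative TFE3 rose by 0.62 and 0.41. With PM10 in normal hIECs, where 9.23% of all genes were called, 6 rose and 0 fell, among them RRAGD and FLCN by 0.44 each, RRAGC by 0.37 and TFE3 by 0.36. In inflamed hIECs 1 rose, against 15.2% of all genes called. No interaction was called by limma for this list, although 7 genes had an unadjusted p under 0.05.

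Of 29 peptidases of digestion and peptide breakdown, 13 were listed at 0 throughout, among them MEP1A, MEP1B and the pancreatic proteases, and 11 were tested. LAP3, a cytosolic leucine aminopeptidase, rose by 3.62 without and 3.59 with PM10, and CNDP2, which splits dipeptides, by 1.12 and 0.76. PEPD, which splits dipeptides that end in proline, fell, with log2 differences of -0.50 and -0.99. In all, 3 rose and 2 fell without PM10 and 3 rose and 5 fell with PM10, where 56.2% and 65.4% of all genes differed. With PM10 itself 1 rose in normal hIECs (9.23% of all genes called), and 1 rose and 2 fell in inflamed hIECs (15.2% of all genes called). Of 10 tested amino acid transporters outside the 8 families, 2 rose and 3 fell with cytokines without PM10, and 2 rose and 5 fell with PM10, beside the same shares of all genes. The mitochondrial carrier of aspartate and glutamate SLC25A13 rose by 0.76 and 0.62, the mitochondrial carrier of basic amino acids SLC25A29 had log2 differences of -0.97 and -1.82, and the vesicular glutamate carrier SLC17A7 had -1.44 and -2.13. With PM10 in normal hIECs 3 of these transporters rose, among them CTNS, the lysosomal exporter of cystine, by 0.44, and in inflamed hIECs 1 fell.

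Markers of other cells moved with the cytokines as well. The summed level of the 10 epithelial markers, nearly all KRT8 and KRT18, was 598 to 651 FPKM without cytokines and 287 to 352 FPKM with cytokines. The 9 neuronal markers, among them ELAVL3 and ELAVL4, which were listed at 0 throughout, summed to 199 to 225 FPKM without and 121 to 137 FPKM with cytokines. Of the 5 tested, 1 was called higher and 3 lower in both comparisons, where 56.2% and 65.4% of all genes differed. STMN2 had log2 differences of -1.14 and -1.03 and TUBB3 of -0.28 and -0.19, whereas SYT1 rose by 0.72 and 0.68 and MAP2 was not called. The 9 markers of goblet, Paneth, endocrine and stem cells summed to 2.01 to 2.80 FPKM without and 5.26 to 8.28 FPKM with cytokines, with 7 of them at 0 and LGR5 the only one tested. The 11 mesenchymal markers summed to 4424 to 5112 FPKM without and 5116 to 5864 FPKM with cytokines. They moved both ways, 5 higher and 4 lower without PM10, and 6 higher and 5 lower with PM10. The part of these shifts in the members' values was not tested.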

How the data were processed

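RNA-seq was analysed for 8 libraries of hIECs, 2 in each of 4 groups taken from the labels. The authors selected poly-A RNA, kept no strand information, trimmed reads with Cutadapt 3.7 and Sickle, aligned them to GRCh38 with HISAT2 2.2.1 and deposited one FPKM value per gene and library from StringTie 2.2.0. The annotation release is not given in the sources used here. FPKM holds no read counts, so depth is unknown and no count test was run. The lowest value above 0 (0.164 to 0.228 FPKM) marks the level under which a gene is listed at 0.

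Values were compared as log2(FPKM + 1), with a pseudocount of 1. limma 3.58.1 (R 4.3.3) with a variance trend was fitted once to the 8 libraries, using the 14206 genes that reached 1 FPKM in 2 or more of them. Two-sided p-values were adjusted after Benjamini and Hochberg, separately for the 5 comparisons. The fit was tested on simulated data for IT against NT over 14206 genes, of which 200 were changed. Of those changed by 1 on the log2 scale 95 of 100 were recovered, and of those changed by 0.5, 66 of 100. In the real comparison 56.2% of genes were called, so recovery there can differ, and the other 4 comparisons were not simulated. The members and lists were chosen with earlier results of these data known. Full statistics are given for up to 8 members per comparison, those called with the largest log2 difference whose 4 pairs of libraries all moved one way and whose mean reached 1 FPKM, and for SLC3A2. They are also given for SLC6A16 with PM10 in inflamed hIECs, where it was not called. Up to 4 genes were named per other list and comparison. Positions are from GENCODE release 44, in which 60261 of the 60558 gene identifiers were found. Some genes of these lists are not reported here by name. The labels name no batch. Replicate numbers were not used to pair the libraries. Deviations of equally numbered libraries correlated by -0.0015 to 0.079 over genes, which cannot exclude a shared preparation. Alternatives covered the pseudocount, the filter, the scaling, the model and leaving out each library.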

Additional observations from a re-analysis of the deposited data

Results flagged for a closer look

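The difference with PM10 itself differed between normal and inflamed hIECs for 2 of 34 members, by limma's interaction term, where 6.60% of all genes tested were called, so that the share of members was near that of all genes. For SLC38A2 the log2 difference with PM10 was 0.52 lower in inflamed than in normal hIECs (value -0.52, SE 0.10, adjusted p = 0.0306), with 0.16 in normal and -0.36 in inflamed hIECs. For SLC43A1 it was 0.62 lower (value -0.62, SE 0.11, adjusted p = 0.0253), with 0.19 in normal and -0.43 in inflamed hIECs. In both genes the 2 libraries of IT-PM10 lay below those of IT and the 2 of PM10 above those of NT. Each call was made in 12 of 19 alternative analyses, and the cause of neither difference was tested.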

How the results depend on the processing

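The members called held in every alternative for 22 of 23 with cytokines without PM10 and 19 of 25 with PM10, and for 0 of 5, 0 of 7 and 0 of 2 for PM10 in normal hIECs, PM10 in inflamed hIECs and the interaction. No result changed direction while called. Leaving out each library gave 22 to 24, 21 to 26, 0 to 9, 0 to 10 and 0 to 5 members called in these 5 comparisons. The cause of these changes was not tested. On values rescaled to TPM 3 members were called with PM10 in normal hIECs (2 higher and 1 lower), 3 in inflamed hIECs (0 and 3) and 0 for the interaction. Without mitochondrial genes 8 were called in normal hIECs (6 and 2), with only the compared groups in the fit 0 in normal hIECs, and without the variance trend 4 for the interaction. Over all genes, 1311 calls with PM10 in normal hIECs became 23 to 2627 over the alternatives, 2165 in inflamed hIECs became 675 to 2992, and 937 for the interaction became 263 to 1266.

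Among the other lists, quantile normalization left 1 call in transporters of other families with PM10 in normal hIECs (3 before) and 1 for the interaction (3 before), and median centring gave 2 with PM10 in inflamed hIECs (1 before). Median centring gave 5 amino acid response genes with PM10 in normal hIECs (3 before). Both scalings gave 2 lysosomal genes with PM10 in inflamed hIECs (1 before) and 1 for the interaction (0 before). With a replicate block, 23, 24, 5, 6 and 2 members were called. The main fit did not pair libraries by number, and with the block no count moved by more than 1.5 times. Levels near 0.2 FPKM cannot be told from 0 in these libraries.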
